A study of Mus musculus with 2 samples.

Results

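The nuclear pore and nuclear transport genes were examined in uterine epithelium of Stat3 knockout and control mice, taken on day 4 of pregnancy, in the morning. The members were found by a rule on gene names, which was itself set with earlier results of these data known: nucleoporins (Nup), importins and karyopherins (Kpna, Kpnb, Ipo, Tnpo), exportins (Xpo and Cse1l), Ran with the Ran-binding and Ran-regulating proteins, and the lamins. On the array, 99 probe sets paired with 1 gene carried such a name, and they represented 49 genes of the 12393 genes measured. Each gene is described by its brightest probe set, that is, the one whose log2 signals average highest.

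The Stat3 knockout group and the control group, whose label names Stat3 flox mice, each consisted of 1 array of epithelial RNA, pooled from n = 3 per sample according to the design text. Both sample titles name the flox control, and only genotype and description separate the groups. The Cre line or promoter that deleted Stat3, the strain and the age of the mice are not stated in the labels used here. Values are MAS5 signals, the background-corrected brightness of an Affymetrix probe set on a linear scale, and the number of arrays limits their precision. With 1 array per group there was no replicate check and no test, so differences are described by size, as the log2 ratio of knockout over control.

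Nuclear pores are the channels through which proteins and RNA cross the nuclear envelope. Importins carry cargo with a nuclear localisation signal inward and exportins carry cargo outward, and the small GTPase Ran sets the direction, because its exchange factor RCC1 sits on chromatin and its activating protein RanGAP1 sits outside the nucleus. In dividing cells the same machinery has further roles: the Y complex of the pore binds kinetochores, Ran directs spindle assembly around chromosomes, and pores and lamina must be doubled and rebuilt. The uterine luminal epithelium of the mouse normally divides in the first days of pregnancy and stops before the embryo attaches.

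The promoters of 4 members with lower signals in the knockout and of 1 member with a higher signal are shown first, because many of the members shifted in the same direction. Each line gives the 250 bases upstream of the annotated start from RefSeq (GRCm38.p6), 5′ to 3′ on the gene's strand, which was the minus strand for all of them: Nup210 at chr6:91116827-91117076, Kpna2 at chr11:106999526-106999775, Rcc1 at chr4:132345751-132346000, Ranbp1 at chr16:18248695-18248944 and Ranbp9 at chr13:43480974-43481223. Capitals mark matches, on either strand, to the letters of an E2F site (TTTCCCGC, TTTGGCGC, TTTCGCGC or TTTGCCGC), the cell cycle homology region CHR (TTTGAA), the NF-Y box (CCAAT), an E-box (CACGTG) or a STAT site (TTC and GAA with NNN between them).
Nup210: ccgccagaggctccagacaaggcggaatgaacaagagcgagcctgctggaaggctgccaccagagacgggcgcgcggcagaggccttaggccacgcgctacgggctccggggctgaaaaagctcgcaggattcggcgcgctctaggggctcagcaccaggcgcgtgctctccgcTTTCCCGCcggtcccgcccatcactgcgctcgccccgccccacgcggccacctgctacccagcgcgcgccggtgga
Kpna2: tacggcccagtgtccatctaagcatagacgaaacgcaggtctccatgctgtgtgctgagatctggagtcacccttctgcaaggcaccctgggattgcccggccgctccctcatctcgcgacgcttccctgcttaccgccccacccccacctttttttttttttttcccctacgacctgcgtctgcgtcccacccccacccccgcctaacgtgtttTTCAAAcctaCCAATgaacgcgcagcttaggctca
Rcc1: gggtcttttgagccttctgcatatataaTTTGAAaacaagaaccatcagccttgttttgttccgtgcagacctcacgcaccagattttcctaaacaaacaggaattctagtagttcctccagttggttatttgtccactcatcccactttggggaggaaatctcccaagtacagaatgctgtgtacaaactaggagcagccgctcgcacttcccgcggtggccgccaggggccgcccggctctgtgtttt
Ranbp1: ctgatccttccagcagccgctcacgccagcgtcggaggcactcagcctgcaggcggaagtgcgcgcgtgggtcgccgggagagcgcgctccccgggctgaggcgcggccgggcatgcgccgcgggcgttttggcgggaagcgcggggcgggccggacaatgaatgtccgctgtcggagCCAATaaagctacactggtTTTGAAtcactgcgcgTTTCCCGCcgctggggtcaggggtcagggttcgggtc
Ranbp9: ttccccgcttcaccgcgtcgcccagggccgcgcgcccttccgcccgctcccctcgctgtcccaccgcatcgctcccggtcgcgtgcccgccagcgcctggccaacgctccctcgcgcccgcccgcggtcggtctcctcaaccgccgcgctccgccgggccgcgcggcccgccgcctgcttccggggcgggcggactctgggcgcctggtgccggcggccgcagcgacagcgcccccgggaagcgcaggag
Nup210, Kpna2 and Rcc1 had the lowest ratios, and Ranbp9 the highest, among the members with 1 listed start that could be shown. Ranbp1 was added after its matches were seen.

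In these windows Nup210 held 1 E2F match, Kpna2 a CHR match and an NF-Y box close to each other, Rcc1 a CHR match far upstream, and Ranbp1 an NF-Y box, a CHR match and an E2F match in that order. Ranbp9 held no match. A RefSeq promoter was found for 37 of the 48 members with a ratio, 12 of them among the members at least 2-fold lower in the knockout. An E2F match occurred in 2 of these 12 and in 0 of the 25 others, against 2.16% of all 27025 genes with a promoter. A CHR match occurred in 4 of 12 and 4 of 25, against 18.3% of all genes, and an NF-Y box in 4 of 12 and 14 of 25, against 37.5%. The E-box was found in 1 of 12 and 6 of 25, against 6.86%, and the STAT letters in 1 of 12, in Nup107, and in 0 of 25, against 8.13%. The counts are small, and a match describes letters and not a bound site; none of the motifs overlapped another in the printed windows.

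Of the 49 genes, 48 had a ratio because at least 1 of their signals exceeded a floor of 14.0; the floor is the 40th percentile of all signals, and a signal under it was set to it. Only Ranbp17, a gene related to the exportins, was under the floor on both arrays. The knockout signal was at least 2-fold lower for 16 of the 48 genes (33.3%), against 9.92% of the 8304 genes with a ratio on the array. A single member, Tnpo1, was at least 2-fold higher, against 7.37% of all genes. The ratio was below 0 in 38 of the 48 members, against 46.6% of all genes, and the members' median log2 ratio was -0.56, against 0.05 for all genes. At other limits, 23 members were at least 1.5-fold lower (18.6% of all genes) and 5 were at least 3-fold lower (4.83% of all genes).

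**Figure D1:**
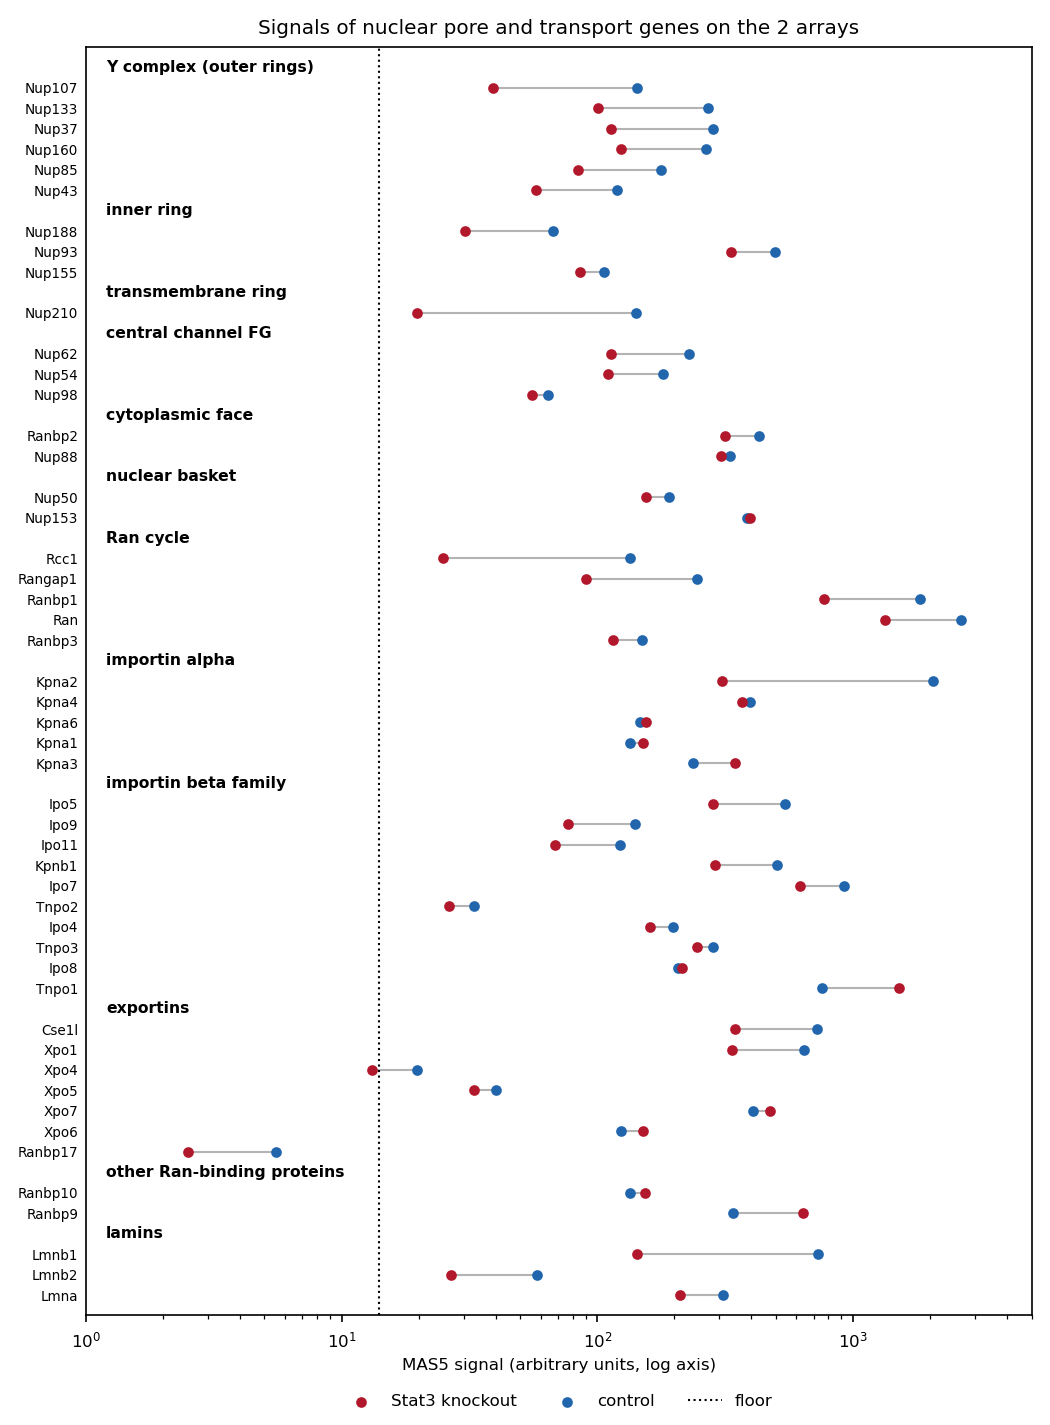
MAS5 signals (log axis) of the 49 genes on the Stat3 knockout array (red) and the control array (blue), grouped by role, with 1 array per group and the floor of 14.0 as a dotted line. The 6 genes grouped as the Y complex all lie to the left in the knockout, while the importin alpha genes other than Kpna2 lie close together.

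Of 17 pore components, 9 were past 2-fold in the direction of lower signal in the knockout (9.92% of all genes) and 0 in the other (7.37% of all genes). All 6 genes grouped here as the Y complex, the scaffold of the outer rings, were among these 9, with a median log2 ratio of -1.21. Nup98, whose gene also encodes a Y complex protein, was grouped with the channel nucleoporins and had a log2 ratio of -0.20. The name rule leaves out 3 further Y complex genes, Sec13, Seh1l and Ahctf1, which had log2 ratios of -0.38, 0.18 and 0.10 and did not reach 2-fold. Of the 11 components in the set grouped outside the Y complex, 3 were at least 2-fold lower (9.92% of all genes). No test compared positions within the pore.

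Within the Y complex, Nup107 had a signal of 39.1 in the knockout and 144 in the control, 3.67-fold lower. Nup133 had 101 in the knockout and 271 in the control, or 2.69-fold lower. Nup37 had 113 in the knockout and 282 in the control, or 2.50-fold lower. These were the widest differences of the complex. Nup160 (123 in the knockout, 266 in the control), Nup85 (83.7 in the knockout, 177 in the control) and Nup43 (57.5 in the knockout, 119 in the control) were 2.16-fold, 2.12-fold and 2.08-fold lower. The probe sets of Nup107, Nup85 and Nup43 are of a design that can read several transcripts. With such probe sets left out, Nup107 and Nup85 had no value. Nup43 did not reach 2-fold in 4 settings: with the arrays centred on their medians (log2 ratio -0.99), with such probe sets left out (-0.96), with the 60th percentile floor (-0.89) and with the floor value added to both signals (-0.90). Nup85 did not reach it with the floor value added (-0.97), nor Nup133 with the mean of all its probe sets (-0.62).

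Nup210, a glycoprotein anchored in the pore membrane, had the lowest ratio of all members. Its signal was 19.8 in the knockout and 142 in the control, 7.17-fold lower, so that the knockout signal stood just over the floor. With the floor at the 60th percentile its log2 ratio was -1.14, against -2.84. In the inner ring, Nup188 was 2.22-fold lower (30.3 in the knockout, 67.4 in the control), whereas Nup93 had 334 in the knockout and 494 in the control, and Nup155 85.6 in the knockout and 107 in the control. Of the phenylalanine-glycine nucleoporins that fill the channel, Nup62 was just past 2-fold, with 113 in the knockout and 228 in the control (2.02-fold lower). Its other measured probe sets had log2 ratios of -0.89 and -0.90, short of 2-fold. Nup54 had 109.7 in the knockout and 181 in the control (log2 ratio -0.73), while its other probe sets had -1.56 and, in a dim one under the floor in the knockout, -0.06 or lower. Nup98 had 55.7 in the knockout and 63.9 in the control.

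None of the members grouped with the faces of the pore reached 2-fold. On the cytoplasmic side, Ranbp2, a large Ran-binding nucleoporin, had 315 in the knockout and 427 in the control, and Nup88 305 in the knockout and 329 in the control. In the nuclear basket, Nup50 had 155 in the knockout and 190.4 in the control, while Nup153 had 395 in the knockout and 383 in the control. Their log2 ratios lay between -0.44 (Ranbp2) and 0.04 (Nup153).

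Of the 5 genes of the Ran cycle, 3 were at least 2-fold lower (9.92% of all genes), all 5 had a ratio below 0 (46.6% of all genes) and the median log2 ratio was -1.25. Rcc1, the chromatin-bound exchange factor that loads Ran with GTP, had a signal of 24.9 in the knockout and 134 in the control, 5.38-fold lower, and a log2 ratio of -1.06 with the 60th percentile floor, against -2.43. Rangap1, which triggers GTP hydrolysis by Ran, had 90.1 in the knockout and 246 in the control, 2.73-fold lower. Its other probe set had 85.5 in the knockout and 211 in the control, and both are of the design that can read several transcripts. Ranbp1, a cofactor of Rangap1, had 767 in the knockout and 1830.4 in the control, 2.39-fold lower. The genes of both regulators that act in opposite directions on the GTPase, exchange factor and activator, thus had lower signals together.

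Ran itself lay at the edge of the limit. Its brightest probe set had 1329 in the knockout and 2629 in the control, 1.98-fold lower. All 5 of its probe sets with a ratio were lower, with log2 ratios of -0.91 to -1.40, and 2 of them were past 2-fold. As a mean of all probe sets, which takes in a dim one that was under the floor on both arrays, the log2 ratio of Ran was -0.18. The brightest of them are of the design that can read related sequences. Ranbp3, a cofactor of the exportin Xpo1, had 115 in the knockout and 149 in the control.

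The importin alpha genes, which encode the adapters that recognise a nuclear localisation signal, split. Kpna2 had a signal of 307 in the knockout and 2047 in the control, 6.66-fold lower. The 4 other measured genes stayed within 2-fold, with log2 ratios of -0.10 to 0.55. Kpna4 had 369 in the knockout and 394 in the control, Kpna6 155 in the knockout and 147 in the control, and Kpna1 151 in the knockout and 134 in the control. Kpna3 had 345 in the knockout and 236 in the control. Kpna2 is read by 1 probe set on this array, so no second probe set measures its difference.

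None of the 10 measured genes of the importin beta family was at least 2-fold lower by its brightest probe set, against 9.92% of all genes. A ratio below 0 was found in 8 of 10, against 46.6% of all genes. Ipo5 had 284 in the knockout and 539.7 in the control (log2 ratio -0.93), Ipo9 76.9 in the knockout and 141 in the control (-0.87), and Ipo11 68.2 in the knockout and 123 in the control (-0.85). These importins carry ribosomal proteins, histones and other cargo without an adapter, or ubiquitin-conjugating enzymes in the case of Ipo11. Ipo7 had 621 in the knockout and 917 in the control. Ipo4, Tnpo2 and Tnpo3 lay between -0.33 and -0.20, and Ipo8 was at 0.06.

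Kpnb1, the importin that pairs with the alpha adapters, gave different values by probe set. The representative probe set had 289 in the knockout and 503 in the control, 1.74-fold lower. A second had 170.3 in the knockout and 750.2 in the control (log2 ratio -2.14), another 145 in the knockout and 328 in the control (-1.18), and a dim one 15.97 in the knockout and 25.7 in the control (-0.69). All 4 were lower, and 2 of the 4 were past 2-fold.

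Tnpo1, which encodes transportin 1, an importer of RNA-binding proteins, ran the other way. Its signal was 1515 in the knockout and 756 in the control, 2.00-fold higher. It was under 2-fold with loess scaling (log2 ratio 0.99), with the floor value added to both signals (0.99) and as a mean with its other probe set (0.57), which was under the floor on both arrays. Ranbp9 was also higher, with 637 in the knockout and 338 in the control (1.88-fold); its name comes from Ran binding, and it is known as a scaffold protein of a ubiquitin ligase complex. The related Ranbp10 had 154 in the knockout and 134 in the control.

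Among the exportins, the recycling factor for importin alpha had the widest difference. Cse1l, which returns importin alpha to the cytoplasm, had 344 in the knockout and 719.6 in the control, 2.09-fold lower. Xpo1, the general exporter of proteins with a leucine-rich signal, had 335 in the knockout and 645 in the control (1.93-fold lower), and its other measured probe set had 316 in the knockout and 578 in the control. Xpo5, the exporter of microRNA precursors, had 32.9 in the knockout and 40.2 in the control. Xpo7 (475 in the knockout, 404 in the control) and Xpo6, the exporter of actin (150.2 in the knockout, 124 in the control), had ratios above 0. Xpo4 was under the floor in the knockout with 13.1, against 19.8 in the control, and was at least 1.41-fold lower.

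The lamin genes, which encode the filaments under the nuclear envelope, differed by type when read by their brightest probe sets. Lmnb1 had a signal of 143 in the knockout and 727 in the control, 5.08-fold lower, and its second probe set had 37.0 in the knockout and 239 in the control (log2 ratio -2.69). Lmnb2 had 26.9 in the knockout and 57.9 in the control, 2.15-fold lower, from a dim probe set. Lmna, the gene of the A-type lamins, had 210.4 in the knockout and 309 in the control (log2 ratio -0.56). By the brightest probe set, both B-type lamin genes were thus past 2-fold and the A-type gene was not. Lmnb2 did not reach 2-fold with the floor value added to both signals (log2 ratio -0.81, against -0.53 for Lmna). With the mean of all probe sets, which includes those under the floor, Lmnb2 was at -0.19 and Lmna at -0.29. The difference between the types was not tested.

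Probe sets of the same gene agreed in direction for most members. The 23 members with more than 1 probe set over the floor on both arrays had 36 further probe sets, of which 33 had the sign of the brightest one. Of the 16 lower members and Tnpo1, 6 had such a further probe set; the 8 probe sets concerned all had the same direction, and 4 were also past 2-fold. Conversely, 3 members within 2-fold (Ran, Kpnb1 and Nup54) had 5 further probe sets that were at least 2-fold lower. The SD between probe sets of 1 member was 0.29 on the log2 scale, against 0.31 over all 2853 genes with several; it covers neither animals nor arrays.

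**Figure D2:**
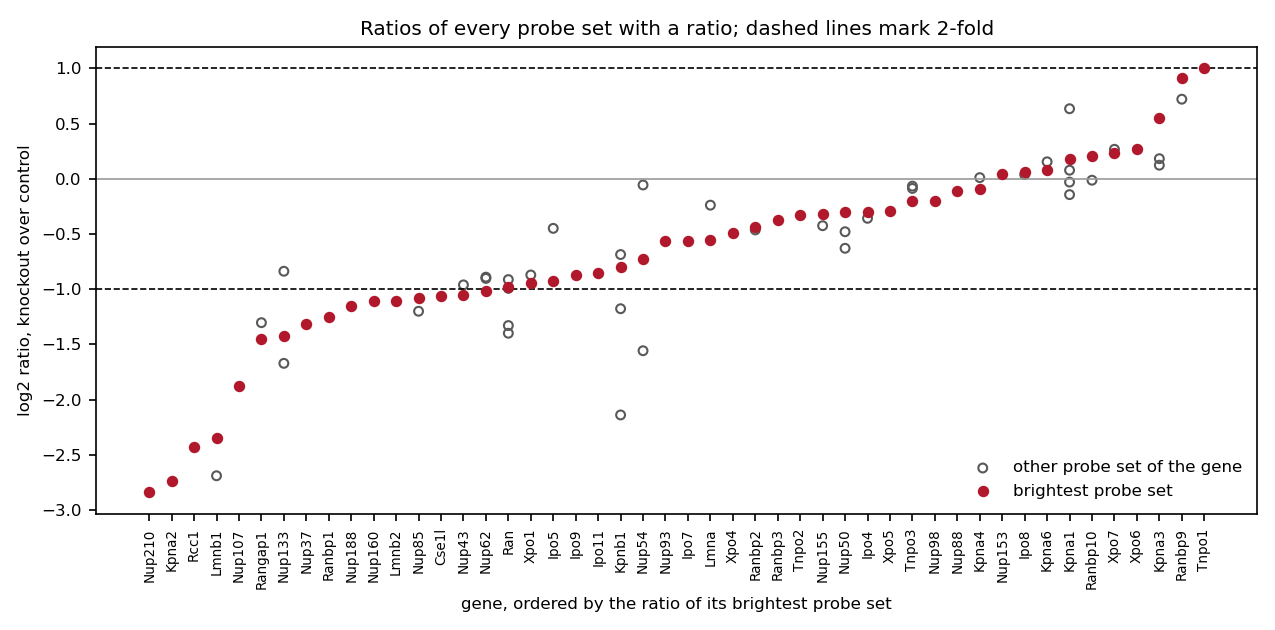
Log2 ratio of knockout over control (y axis) for each member with a ratio (x axis, ordered), with the brightest probe set filled and the others open, 1 array per group. Nup210, Kpna2, Rcc1 and Lmnb1 form the low end, and 7 members from Ran to Nup54 lie between 1.5-fold and 2-fold lower.

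Genes of the same pathway that the name rule does not cover were counted in the same way. Of 21 further pore and transport genes with a ratio, 5 were at least 2-fold lower, against 9.92% of all genes, and 1 was at least 2-fold higher, against 7.37%. Their median log2 ratio was -0.38. Ndc1, which encodes a membrane anchor of the pore, was under the floor in the knockout with 12.9, against 72.8 in the control, and was at least 5.18-fold lower. Aaas, which encodes a pore protein bound to Ndc1, had 26.7 in the knockout and 80.9 in the control, 3.03-fold lower. Rangrf, a regulator of Ran, had 28.2 in the knockout and 117 in the control, 4.14-fold lower. Senp1, which removes SUMO from proteins at the pore and in the nucleus, had 25.8 in the knockout and 55.6 in the control, 2.16-fold lower, and Nxt1, a partner of the mRNA exporter, is described with the export genes. The Y complex genes whose names do not start with Nup did not reach 2-fold: Sec13 had 404 in the knockout and 525 in the control, Seh1l 278 in the knockout and 246 in the control, and Ahctf1, which recruits the complex to chromatin, 143 in the knockout and 133 in the control. Ddx19b, a helicase that acts in mRNA export, was 2.29-fold higher (129.6 in the knockout, 56.7 in the control).

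Among mRNA export genes, 3 of 12 were at least 2-fold lower (9.92% of all genes) and 0 were higher, with a median of -0.57. The lower ones were the helicase gene Ddx39a (418 in the knockout, 1159.7 in the control, 2.78-fold), the adapter gene Alyref (417 in the knockout, 912 in the control, 2.19-fold) and Nxt1 (135 in the knockout, 273 in the control, 2.02-fold), which also counts among the 21 genes above. Of 14 nuclear envelope genes, 3 were at least 2-fold lower (9.92% of all genes) and 0 higher, around a median of 0.08. These were Nrm (21.8 in the knockout, 108 in the control, 4.98-fold), Tmpo, a lamina-associated protein gene (180.03 in the knockout, 607 in the control, 3.37-fold), and Lbr, the lamin B receptor gene (281 in the knockout, 736 in the control, 2.62-fold). Zmpste24, the protease that matures lamin A, had 4692 in the knockout and 2679.5 in the control.

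Markers of cell division moved with these differences. Of 33 such genes, 31 had a knockout signal at least 2-fold lower (9.92% of all genes) and 0 a higher one past that limit (7.37% of all genes). Their median log2 ratio was -3.78, which is a bound, because the middle gene, Kif11, was under the floor in the knockout. With no floor the median of these markers was -4.00. The summed signal of the markers was 2302 in the knockout and 18921 in the control. No marker was at 0, and 7 were under the floor in the knockout. Pcna, the replication clamp, still had 783 in the knockout and 2109 in the control. The part of cell division in the differences of the pore and transport genes was not tested. In such tissue RNA, fewer cells of a type and less RNA per cell cannot be told apart.

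**Figure D3:**
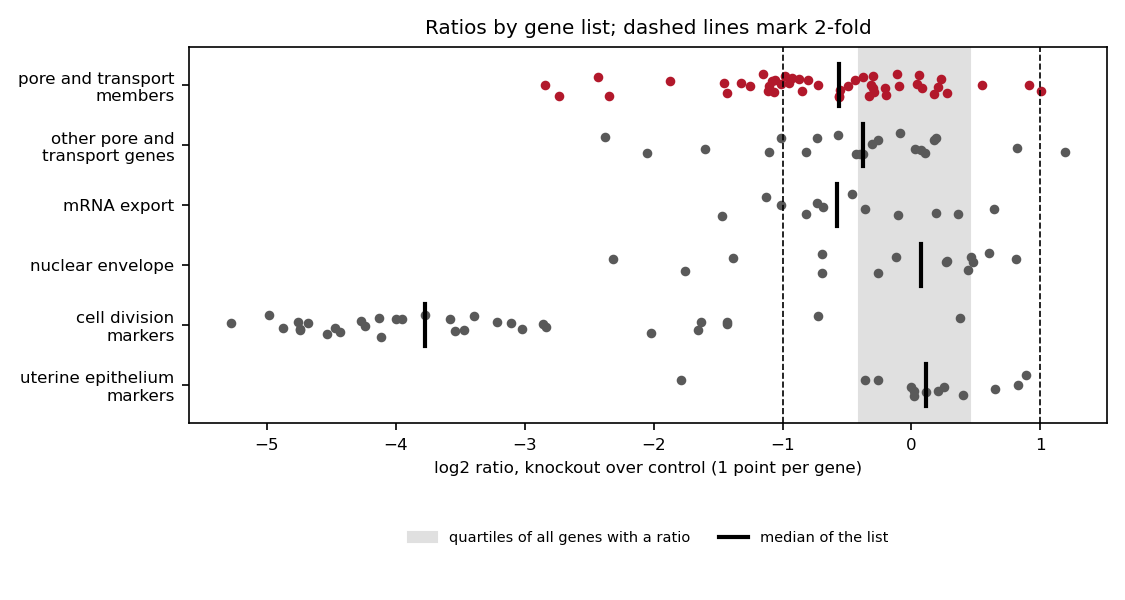
Log2 ratios of knockout over control by gene list, 1 point per gene, with the median of each list as a black bar and the quartiles of all genes with a ratio in grey. The members centre on -0.56 and the cell division markers on -3.78, a bound set by the floor, while the uterine epithelium markers centre on 0.12.

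The median signal was 30.7 in the knockout and 32.1 in the control. Stat3 had signals of 186 in the knockout and 582 in the control (3.12-fold lower) and, by another probe set, 160.01 in the knockout and 430.01 in the control; whether these lie in the deleted part of the gene is not known here. All 13 uterine epithelium markers were over the floor on both arrays, with a summed signal of 29583 in the knockout and 25945 in the control. Their ratios were above 0 in 9 and below 0 in 4 (46.6% of all genes). Of the 13, 1 was at least 2-fold lower, Krt7 (9.92% of all genes), and 0 were at least 2-fold higher (7.37% of all genes). Stroma markers summed to 3671 in the knockout and 2740.3 in the control, with 11 of 12 over the floor on 1 array or both and Hand2 under it on both, and leukocyte markers to 711 in the knockout and 554 in the control, with 7 of 11. Of the muscle and endothelium markers, 2 of 6 and 3 of 7 were over it. Ratios were above 0 in 9 stroma markers and below 0 in 2 (46.6% of all genes). Among the lower ones, Fn1 was 2.11-fold lower (56.7 in the knockout, 119.6 in the control). For the leukocyte markers, 5 ratios were above 0 and 2 below. The 3′ to 5′ signal ratio of Gapdh was 0.699 in the knockout and 0.736 in the control, and spike-in probe sets had log2 ratios of -0.33 to 1.06. The part of these in the members' differences was not tested.

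The excess of lower signals among the members over the array as a whole was found under each of the 11 processing settings run. The share of members at least 2-fold lower ranged from 22.4% with the floor value added to both signals, against 5.40% of all genes, to 35.4% with quantile normalization, with loess and with the brightest probe set by mean linear signal, against 9.80%, 10.96% and 9.96%. Of the 17 members past 2-fold, 10 stayed past it in each setting that gave them a value: Nup210, Kpna2, Rcc1, Lmnb1, Nup107, Rangap1, Nup37, Ranbp1, Nup160 and Cse1l. The other 7 were Nup133, Nup188, Lmnb2, Nup85, Nup43, Nup62 and Tnpo1. Of the 10, Nup107 and Rangap1 had no value with shared probe sets left out, so that setting did not check them.

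**Figure D4:**
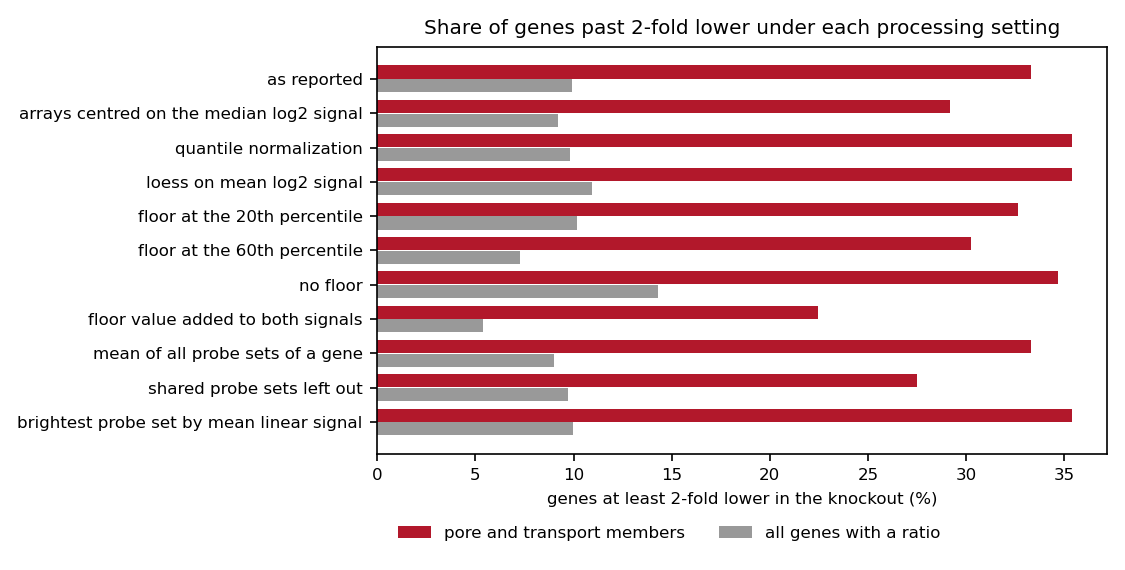
Percent of genes at least 2-fold lower in the knockout (x axis, from 0) under each processing setting (y axis), for the pore and transport genes (red) and for all genes with a ratio (grey). The members' bar is the longer one in each setting, from 22.4% against 5.40% to 35.4% against 9.80%.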

How the data were processed

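Uterine epithelial RNA (100 ng per array, per the labels' protocols) was labelled and read on Affymetrix Mouse Genome 430A 2.0 arrays, 1 for the Stat3 knockout and 1 for the control. The labels' extraction text names stromal cells of human endometrium, against the mouse epithelium given by the other labels, which were followed. The authors deposited an intensity for every probe set and array, made with MAS5 and Affymetrix Expression Console 1.1, per the submitters' processing notes. These intensity values were linear, between 0.0230 and 8267, with equal trimmed means (150.0 on both arrays after removal of 2% at each end), so a common scaling preceded deposit. Neither detection calls nor probe-level data were used.

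Of 22626 probe sets that are not controls, 20380 were paired with 1 gene in the platform annotation, 691 with several and 1555 with none. The last 2 kinds were left out, among them 2 probe sets that name Ipo4 or Xpo4 beside another gene. Current symbols came from RefSeq (GRCm38.p6) by gene ID, which held 99.9% of them. The platform symbol decided membership. Log2 ratios were computed after flooring signals at 14.0 (40th percentile of signals that are not controls), without pseudocount; a ratio with 1 signal under the floor is a bound, written "at least". Calls were made at 2-fold. No p-value or SD of a group exists with 1 array per group. Named were Stat3, members past 2-fold, up to 4 others per role by signal and the rest by range, and likewise from each list. The members, roles and lists were chosen with earlier results of these data known. Alternatives changed scaling, floor, probe set choice or fold limit. Ratio code was tested on simulated data. Python 3.11.15, pandas 2.3.3 and statsmodels 0.14.6 (loess, span 0.3) were used.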

Additional observations from a re-analysis of the deposited data

How the results depend on the processing

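No paired analysis was possible because each group has 1 array, and no replicate could be left out for the same reason. Of 154 alternative values of counts and medians, 129 stayed within 1.5 times the reported count or within 0.1 of the reported log2 median. Another 477 alternative values covered single members and the median of all genes. Among these, a change of direction was counted only for the 17 members past 2-fold, and none was found. Some members within 2-fold did change sign. With the mean of all probe sets, Kpna4 was at 0.24, against -0.10, and Tnpo2 at 0.06, against -0.33. Without shared probe sets, Kpna1 was at -0.14, against 0.18, and Ranbp10 at -0.01, against 0.20. The cause of the shifts below was not tested, except that a higher floor or an added value compresses ratios by construction. The count of lower members was 5 at a 3-fold limit. The count of higher members, 1 as reported, was 0 with loess, with the floor value added, with the mean of all probe sets and at 3-fold, and 2 at 1.5-fold. The members' median was -0.43 with the mean of all probe sets, against -0.56. For the other pore and transport genes, the lower count was 1 with the 60th percentile floor and 3 with the floor value added, the higher count was 0 with the mean of all probe sets and 2 without shared probe sets, and the median was -0.26 both with the 60th percentile floor and without shared probe sets. The mRNA export median was -0.46 with the 20th percentile floor and with no floor, -0.40 with the floor value added and -0.28 with the mean of all probe sets. The nuclear envelope median was 0.27 with the 60th percentile floor and with the mean of all probe sets. The cell division median was -4.00 with the 20th percentile floor and with no floor, -2.39 with the 60th percentile floor, -3.14 with the floor value added, -3.30 with the mean of all probe sets and -3.47 without shared probe sets. Choosing the brightest probe set by mean linear signal, an alternative chosen after seeing the data, moved Kpnb1 to -2.14. With the 60th percentile floor, Nup188 was at -0.07, Nup107 at -1.16, Nup210 at -1.14 and Rcc1 at -1.06. With the mean of all probe sets, which includes those under the floor, Nup133 was at -0.62, Lmnb2 at -0.19, Ran at -0.18, Xpo1 at -0.40, Ipo5 at -0.41 and Nup54 at -1.18. Members near the floor (Nup210, Rcc1, Nup188, Lmnb2, Xpo4) are limited by signal over background.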
